A study of Mus musculus with 26 samples.

Results

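Lungs of 5 mice given the low dose of the carbon nanotube NM-401 were compared with lungs of 5 control mice, together 10 of the 25 animals in the study, and the animals were taken by their sample labels alone. NM-401 is a multiwalled carbon nanotube, a stiff fibre of nested carbon cylinders. The mice were MutaMouse, a transgenic strain that carries a bacterial reporter gene for scoring mutations, and they were about 12 weeks old and housed singly. The NM-401 low group received 42.7 µg per mouse in mouse serum through the trachea, with 1 dose a week over 4 weeks, and lungs were taken 56 days after the last dose. Whether 42.7 µg was each dose or the total is not said in the labels. The control group shared strain, age and collection time. The treatment text says that controls were gavaged with olive oil only, whereas the design text calls them vehicle controls. If the treatment text holds, serum and the instillation itself cannot be told apart from the nanotubes. The sample labels give all animals as female and the design text as male. Xist was above background in 5 of 5 NM-401 low and 5 of 5 control lungs, and the Y-linked genes Ddx3y, Kdm5d and Uty in 0 of either group, while the probe of a further Y-linked gene, Eif2s3y, was above background in 4 NM-401 low and 5 control lungs. The other groups, of 5 animals each, enter every test through the shared estimate of the spread, and their values are given only near the end. NM-401 high was given 128 µg per mouse. Mitsui low was given 42.7 µg and Mitsui high 128 µg per mouse of Mitsui XNRi-7, another multiwalled carbon nanotube. Mitsui low animal 5 had a repeated array, which was averaged with its first.

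The RNA came from random sections of whole frozen lung, so every value is an average over many cell types, and fewer cells of a type cannot be told apart from less RNA per cell. Inhaled fibres that are too durable to digest are taken up by alveolar macrophages, which enlarge their lysosomes, release chemokines that draw monocytes and neutrophils from the blood, and can take on a lipid-laden state. The airway lining can answer persistent irritation by making mucus, and the alveolar wall, built of flat type 1 cells, surfactant-making type 2 cells and a dense capillary bed, can be remodelled. These are general features of lung biology and no result of these samples.

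For each of 22950 features an array gave a log2 ratio, the signal of lung RNA over that of universal mouse reference RNA (14838 features have a gene symbol). A log2 ratio compares a gene with itself between animals and says nothing of one gene's level against another's. Between 49.6% and 60.2% of probes were above background in the lung channel of the NM-401 low arrays and 48.2% to 57.9% in controls. Animals of one group correlated at 0.953 to 0.979 in NM-401 low and 0.962 to 0.982 in control lungs. The lung markers were in place in both groups: Sftpc, the surfactant protein gene of type 2 cells, had log2 ratios of 7.68 to 8.15 in NM-401 low lungs and 7.40 to 8.23 in control lungs, and Scgb1a1, the secretoglobin of club cells, 6.92 to 7.95 and 7.36 to 7.90. Arrays lay on 4 slides. NM-401 low animal 4 shared slide 1 with controls 1 and 5, animals 1 and 2 shared slide 2 with control 2, animal 5 shared slide 3 with control 3, and animal 3 shared slide 4 with control 4.

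By limma's moderated test over all 25 animals, with Benjamini-Hochberg adjustment over all features, 3890 features differed between NM-401 low and control lungs at an adjusted p under 0.05, which is 16.9% of those tested. Of these, 2054 (8.95% of features tested) were higher and 1836 (8.0%) lower in NM-401 low lungs. Below, rose, fell and called refer to this test, and every log2 difference is NM-401 low minus control with its standard error (SE) from the fit and n = 5 per group. Without regard to the test, all 5 NM-401 low values lay above all 5 control values in 1498 features (6.53%) and below them in 1162 (5.06%). The median log2 difference over all features was -0.01. Every count of called list members below is to be read against 8.95% of all features higher and 8.0% lower.

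The gene with the largest log2 difference was Clca1, which encodes a protein secreted by goblet cells. Its log2 ratios in NM-401 low animals 1 to 5 were 7.51, 7.75, 5.93, 1.73 and 7.02, against 0.01, -0.05, 0.34, 0.03 and -0.08 in controls 1 to 5. It was well above background in 5 NM-401 low and 0 control lungs, so the control level is only an upper limit, and the log2 difference was 5.94 ± 0.86 (adjusted p = 5.52e-05). Animal 4 stood well below the other exposed animals and still above every control. Cxcl5, a chemokine that attracts neutrophils and is made by lung epithelium, had 0.57, 0.86, 1.05, 0.65 and 1.67 in NM-401 low lungs, against -2.75, -2.57, -2.39, -3.99 and -3.79 in control lungs. That is a log2 difference of 4.06 ± 0.39 (adjusted p = 3.61e-07). Saa3, a serum amyloid A protein made at sites of inflammation, had -1.01, 0.62, -0.48, -0.79 and 0.18 in NM-401 low lungs, against -4.60, -3.97, -4.16, -4.51 and -4.5 in control lungs. Its log2 difference was 4.05 ± 0.46 (adjusted p = 3.75e-06), and as with Cxcl5 the groups lay far apart. AA467197, which the RefSeq table lists under this clone name, had 3.45 to 4.90 in NM-401 low lungs and -0.21 to 1.08 in control lungs. It rose 11.7-fold (95% interval 7.45 to 18.3, adjusted p = 1.25e-07).

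**Figure D1:**
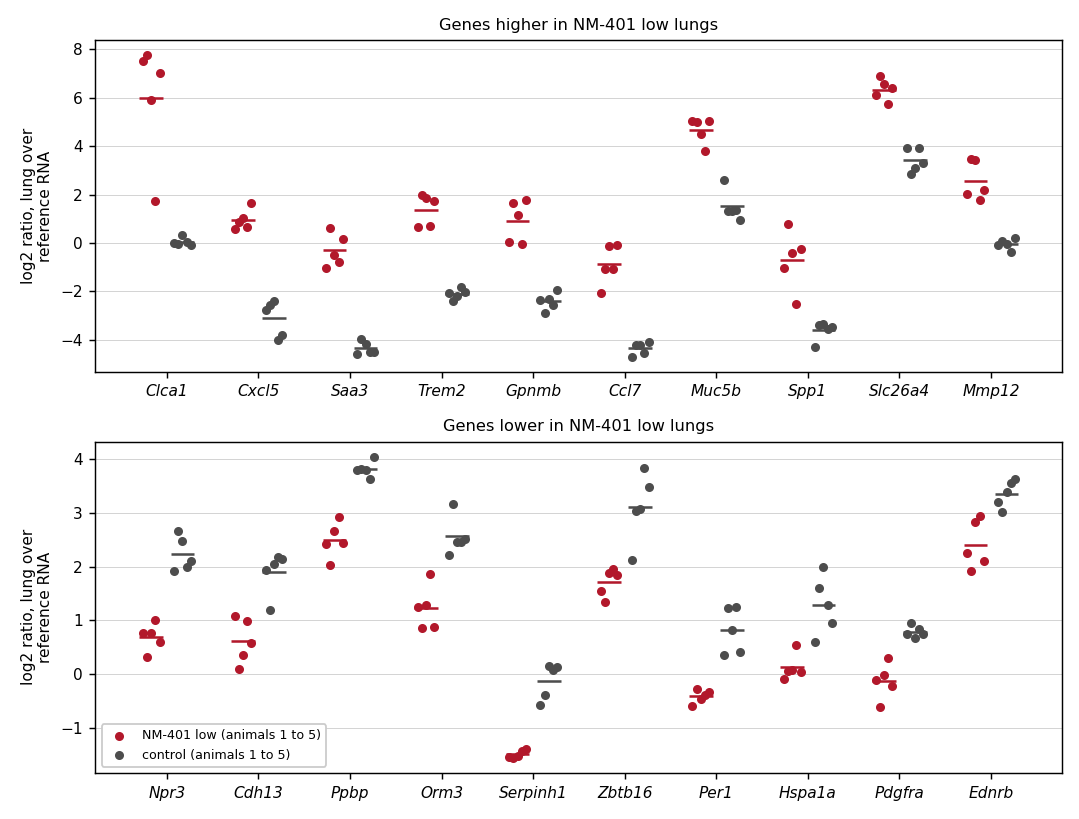
Log2 ratio of lung over reference RNA (vertical axis) for 10 genes that rose (upper panel) and 10 that fell (lower panel). Points are single animals (NM-401 low red and left, control grey and right) and bars group means. For all 20 genes the 5 NM-401 low animals lie on one side of the 5 controls, with Clca1 in animal 4 (1.73) the point nearest to the controls for its gene.

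Among the largest falls, Npr3, the clearance receptor for natriuretic peptides, had log2 ratios of 0.77, 0.31, 0.77, 1.00 and 0.61 in NM-401 low lungs, against 1.91, 2.65, 2.47, 1.99 and 2.10 in control lungs. It was 2.90-fold lower (log2 difference -1.53 ± 0.20, adjusted p = 1.56e-05). Cdh13, T-cadherin, had 0.09 to 1.08 in NM-401 low lungs and 1.19 to 2.17 in control lungs (log2 difference -1.27 ± 0.22, adjusted p = 0.000433), control 2 being the lowest control. The groups were also apart for Bex2 (-1.68 ± 0.22), which lost its call with the Feature Extraction log ratios (-0.45, adjusted p = 0.403), for the sodium channel gene Scn3a (-1.40 ± 0.23) and for Cntn1, a neural cell adhesion gene (-1.27 ± 0.18). Cox8b, a cytochrome oxidase subunit of heart and brown fat, fell by 1.75 ± 0.43 on the log2 scale, with 1.94 to 2.61 in NM-401 low lungs and a wide range of 2.62 to 5.95 in control lungs, and its call was lost with the Feature Extraction log ratios (-1.43, adjusted p = 0.107). Its highest value was in control 2, which was also the highest of the 10 lungs for the fat genes Adipoq (5.34) and Fabp4 (7.25). It was the only called member of 18 measured cardiac muscle genes. The level of that list, meaning the mean of its members' log2 ratios minus the control mean, ran from -1.44 to 0.11 in NM-401 low lungs and from -1.04 to 0.84 in control lungs. Those ranges overlap, and the part of heart, vessel or fat tissue in any result was not tested.

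Of 17 measured genes of lipid-laden macrophages 15 rose and 1 fell, against 8.95% and 8.0% of all features, with a median log2 difference of 1.15. The list level was 1.09, 1.85, 1.62, 0.98 and 1.59 in NM-401 low animals 1 to 5, against -0.11 to 0.13 in controls. Trem2, a lipid-sensing receptor that marks this macrophage state, had log2 ratios of 0.68, 2.00, 1.84, 0.69 and 1.72 in NM-401 low lungs, against -2.08, -2.39, -2.19, -1.81 and -2.01 in control lungs (log2 difference 3.48 ± 0.29, adjusted p = 4.27e-08). Gpnmb, a lysosomal glycoprotein, had 0.03, 1.64, 1.17, -0.03 and 1.78, against -2.34, -2.91, -2.30, -2.58 and -1.94 in control lungs. In both genes animals 1 and 4 were the lowest exposed animals, over 1 log2 unit under the others. Spp1, osteopontin, had -1.03, 0.79, -0.42, -2.51 and -0.23, against -4.30, -3.38, -3.33, -3.55 and -3.47 in control lungs, and animal 4 was again the lowest. The macrophage elastase gene Mmp12 had 1.78 to 3.49 in NM-401 low lungs and -0.39 to 0.21 in control lungs, where it was above background in 1 of 5 animals. Plin2, which coats lipid droplets, rose by 1.04 ± 0.21 and Fabp5, a fatty acid carrier, by 1.51 ± 0.21. The lipid uptake receptor gene Cd36 was the member that fell (-0.43 ± 0.11, adjusted p = 0.00727).

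Of 25 genes for lipid handling in general 7 were called higher (28%, against 8.95% of all features) and 3 lower (12%, against 8.0%). The median was 0.16, and 4 of the 7 (Apoe, Lpl, Plin2 and Fabp5) are also in the lipid-laden macrophage list. The 3 falls became 1 without NM-401 low 1, 2 or 5, without control 3 or 4, and with array column or replicate number as a block. Ch25h, which makes the immune oxysterol 25-hydroxycholesterol, rose by 1.93 ± 0.20. The cholesterol exporter gene Abca1 had a log2 difference of 0.07 and was not called. Of 18 scavenger receptors 7 rose and 1 fell. Msr1, a receptor for modified lipoproteins and particles, had 0.23, 1.75, 2.04, 0.77 and 1.15 in NM-401 low lungs, against -0.71, -0.96, -1.47, -0.92 and -0.83 in control lungs. The related receptor Marco, a particle receptor of resident alveolar macrophages, had a log2 difference of 0.05 and was not called.

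Markers of monocytes and macrophages in general rose in 18 of 24 genes, with none lower and a median of 0.97. Ms4a7, a marker of macrophages, had 1.59, 2.62, 3.12, 1.85 and 2.60 in NM-401 low lungs, against -0.40, -0.49, -1.42, -0.88 and -0.89 in control lungs, 9.0-fold higher (95% interval 5.67 to 14.3). Cd14, the co-receptor for bacterial lipopolysaccharide, rose 4.79-fold (3.64 to 6.31). The list level was 0.65 to 1.27 in NM-401 low lungs and -0.14 to 0.19 in control lungs. In 17 of the 24 genes all NM-401 low values lay above all control values, against 6.53% of all features. Ccr2, the receptor by which monocytes leave the marrow, had a log2 difference of 0.03 and was not called. The markers of resident alveolar macrophages gave another picture, with 5 of 22 higher (22.7%, against 8.95% of all features). Of these markers 1 was lower (4.55%, against 8.0%), and the median was 0.00. Siglecf (-0.35), Pparg (-0.05) and Ear2 (-0.18) were not called, while Atp6v0d2, which is also in the proton pump list, rose by 1.56 ± 0.18. Cidec, a lipid droplet protein, was the member that fell (-1.46 ± 0.51, adjusted p = 0.0491), and its call was lost with any animal left out except NM-401 low 1 or control 3 (log2 difference -1.53 to -1.11, adjusted p = 0.0642 to 0.149), and with slide as a block (-1.47, adjusted p = 0.0523). Fat tissue genes moved with it: control 2 had the highest Cidec (5.33), Adipoq (5.34) and Fabp4 (7.25) of the 10 animals, and the part of fat in the sections was not tested.

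Lysosomal genes rose as a group by count. Of 31 lysosomal enzymes and membrane proteins 20 rose and none fell (median 0.40), of 17 cathepsins and their inhibitors 11 rose and 1 fell (median 0.68), and of 16 subunits of the vacuolar proton pump that acidifies lysosomes 11 rose and none fell (median 0.31). These lists share members with each other and with the macrophage lists. Ctsd, the aspartic protease cathepsin D, had 2.52, 3.57, 2.82, 2.18 and 3.38 in NM-401 low lungs, against 0.84, 0.93, 1.14, 0.82 and 1.07 in control lungs (log2 difference 1.93 ± 0.23, adjusted p = 5.39e-06). Ctsk, the collagen-degrading cathepsin K, had 4.22, 4.63, 4.24, 3.77 and 4.36 in NM-401 low lungs, against 3.07, 2.45, 2.65, 3.08 and 3.01 in control lungs. Atp6v0d2, a pump subunit abundant in macrophages and osteoclasts, had 3.59 to 4.71 in NM-401 low lungs and 2.33 to 2.87 in control lungs. Again animal 4 was the lowest exposed animal in all 3 genes without reaching the controls. Among the hydrolases, Gaa, which degrades glycogen, rose by 1.55, Psap, the precursor of saposins, by 1.36 and Gusb, beta-glucuronidase, by 1.11, whereas Gla, alpha-galactosidase (-0.05), and Arsa, arylsulfatase A (-0.04), were not called. The promoter of Ctsd is shown because E-boxes, CACGTG, are the core of the sites that lysosomal gene regulators bind. It spans 250 bases before to 50 after the RefSeq start in build GRCm38.p6, chr7:142387778-142388077 on the minus strand, with the letters CACGTG in capitals at positions -245 and -98 from the start.
Ctsd: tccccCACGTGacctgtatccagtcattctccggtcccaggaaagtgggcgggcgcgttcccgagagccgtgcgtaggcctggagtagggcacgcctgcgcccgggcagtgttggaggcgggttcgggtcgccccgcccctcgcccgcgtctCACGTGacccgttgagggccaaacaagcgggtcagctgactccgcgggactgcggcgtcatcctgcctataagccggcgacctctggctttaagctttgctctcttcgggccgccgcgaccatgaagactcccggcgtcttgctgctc
The letters CACGTG, which read the same on both strands, were in 7 of 32 promoters of the lysosomal list (21.9%), against 7.15% of the 32851 promoters in the table. Of the 31 measured members, 25 had a promoter there. A match says only that the letters are present.

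**Figure D2:**
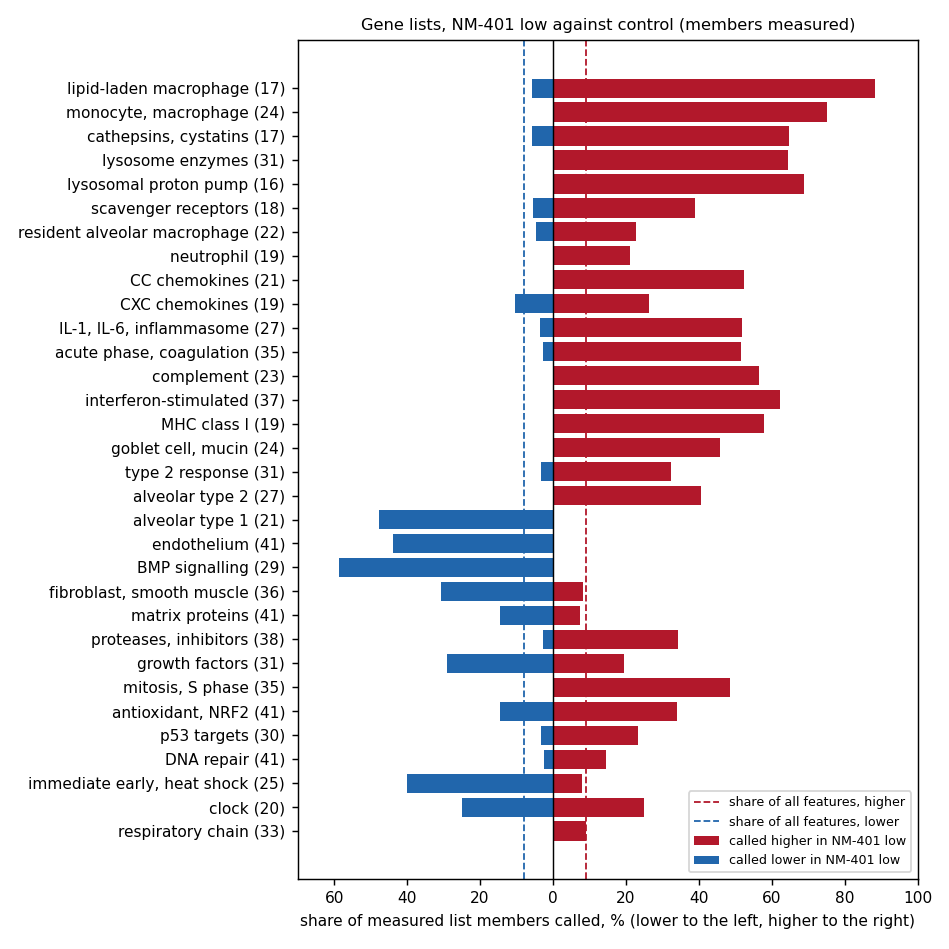
Share of measured members called higher (red, to the right) or lower (blue, to the left) in NM-401 low lungs for 32 gene lists, with the number measured in brackets. Dashed lines mark the share of all features called higher (8.95%) and lower (8.0%). Macrophage and lysosome lists reach furthest to the right, and BMP signalling, alveolar type 1 and endothelium lists furthest to the left.

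Of 21 measured CC chemokines and receptors 11 rose and none fell (median 0.75). Ccl7, a monocyte attractant, had log2 ratios of -2.08, -1.06, -0.11, -1.09 and -0.08 in NM-401 low lungs, against -4.69, -4.20, -4.23, -4.54 and -4.08 in control lungs (log2 difference 3.47 ± 0.43, adjusted p = 1.08e-05). Ccl2, the main ligand of Ccr2, had -2.90, -1.57, -1.09, -2.21 and -1.01, against a narrow control range of -4.58 to -4.44. Ccl9, made by macrophages, had 1.77 to 3.2 in NM-401 low lungs and -0.26 to 0.41 in control lungs. For all 3 genes every exposed animal lay above every control. Ccl5, an attractant of T cells, had a log2 difference of -0.11 and was not called. Of 19 CXC chemokines and receptors 5 rose (26.3%, against 8.95% of all features) and 2 fell (10.5%, against 8.0%). Besides Cxcl5, Cxcl1, another neutrophil attractant, rose by 1.90 and Cxcl17, a mucosal chemokine, by 0.99, a call lost with the Feature Extraction log ratios (0.22, adjusted p = 0.488). The members that fell were Cx3cl1, fractalkine (-0.43), whose call was lost without NM-401 low animal 2 (-0.34, adjusted p = 0.0691) or control 2 (-0.37, adjusted p = 0.0564), and Ppbp, a chemokine stored in platelets. Ppbp had 2.42, 2.02, 2.67, 2.91 and 2.44 in NM-401 low lungs, against 3.80, 3.81, 3.80, 3.62 and 4.04 in control lungs (log2 difference -1.32 ± 0.25, adjusted p = 0.000858).

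Most neutrophil markers were not called: 4 of 19 rose (21.1%, against 8.95% of all features), none fell, and the median was 0.00. The risers were Ltf, lactoferrin, with 5.56, 5.06, 3.85, 4.14 and 4.57 in NM-401 low lungs, against 2.59, 1.54, 2.50, 2.59 and 1.99 in control lungs, and Lcn2, lipocalin, with 3.28 to 4.14 against 1.37 to 2.19. Slpi, a leukocyte protease inhibitor, and Chil1 also rose, by 1.44 and 0.35. Neutrophils and lung epithelium can both make these proteins, and which cells the rises came from was not tested. The calprotectin genes S100a8 (0.00) and S100a9 (-0.15), the receptor gene Cxcr2 (-0.21) and the granule genes Camp (-0.09) and Elane (0.03) were not called. S100a8 ran from 1.75 to 2.70 in NM-401 low lungs and over a wider range, 0.40 to 3.57, in control lungs.

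In the list of IL-1, IL-6 and inflammasome genes 14 of 27 rose and 1 fell (median 0.55). Il6 itself rose by 1.34 ± 0.21, with -1.18, -0.67, -0.44, -1.27 and -0.87 in NM-401 low lungs, against -2.31, -2.09, -2.16, -2.44 and -2.12 in control lungs. Il33, an alarmin of type 2 cells that acts on innate lymphoid cells, rose by 1.18 ± 0.20 and the caspase gene Casp1 by 0.91 ± 0.20. Neither IL-1 gene was called: Il1b had 1.99 to 3.06 in NM-401 low lungs and 1.69 to 3.06 in control lungs, and Il1a had a log2 difference of 0.05. The member that fell was the IL-6 receptor gene Il6ra (-0.42), whose call was lost without control 2 (-0.37, adjusted p = 0.0529).

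Acute phase and coagulation genes rose in 18 of 35 and fell in 1 (median 0.54), and complement genes rose in 13 of 23 with none lower (median 0.78). Fgg, a fibrinogen chain, had log2 ratios of 3.23, 5.12, 5.01, 6.04 and 3.90 in NM-401 low lungs, against 1.70, 1.13, 1.52, 1.53 and 2.08 in control lungs (log2 difference 3.07 ± 0.44, adjusted p = 4.99e-05). Fga, a second chain, was above background in 5 NM-401 low and 0 control lungs, at least 2.25-fold higher (adjusted p = 0.0251). The remaining chain gene, Fgb, had a log2 difference of 1.91 and was not called. Animal 4 was the highest for Fgg and Fga, Fga at 3.08 against 0.41 to 1.68 in the other exposed animals. The liver genes Alb, albumin, and Apoa1, an apolipoprotein, were also highest in animal 4 among the exposed, Alb with 0.24, 1.82, 4.61, 4.71 and 3.72 in NM-401 low lungs, against 0.84, 1.80, 1.16, 1.42 and 3.02 in control lungs. Apoa1 had 0.09, 0.49, 2.42, 4.06 and 1.22, against 0.15 to 0.70 in control lungs. Neither was called (Alb 1.37, adjusted p = 0.335, and Apoa1 1.33, adjusted p = 0.0799), though Apoa1 was with array column as a block (1.4, adjusted p = 0.0423) and without NM-401 low 1 or 2 (1.72 and 1.62, adjusted p = 0.0221 and 0.0454), and Alb read -0.23 with the Feature Extraction log ratios. The part of liver RNA in the acute phase result was not tested. C3, the central complement protein, had 3.40, 3.73, 3.69, 3.62 and 3.51 in NM-401 low lungs, against 2.16, 2.41, 1.62, 1.75 and 1.82 in control lungs. C1qb, made by macrophages, rose by 1.60 and Cfb, factor B, by 1.33. Among the acid glycoproteins Orm1 rose by 1.43 and Orm2 by 1.66, while Orm3 of the same family fell by 1.33 ± 0.22, with 0.86 to 1.86 in NM-401 low lungs and 2.21 to 3.16 in control lungs. The 3 genes are near-identical copies, and which probe reads which copy is uncertain. The plasminogen activator gene Plau rose by 2.17 ± 0.50, with control 5 (-0.21) far above the other controls (-1.95 to -1.58).

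The promoters of Saa3 and Lcn2 are shown because C/EBP factors are classical drivers of acute phase genes. They are RefSeq promoters of GRCm38.p6 on the minus strand, Saa3 at chr7:46715627-46715926 and Lcn2 at chr2:32387690-32387989, and the capitals mark TTGCNNAA on either strand.
Saa3: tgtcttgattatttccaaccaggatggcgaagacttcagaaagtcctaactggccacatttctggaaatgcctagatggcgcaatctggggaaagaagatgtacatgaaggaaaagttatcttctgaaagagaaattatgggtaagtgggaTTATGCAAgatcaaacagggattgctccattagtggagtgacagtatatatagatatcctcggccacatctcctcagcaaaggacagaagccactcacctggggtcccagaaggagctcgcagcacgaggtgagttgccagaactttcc
Lcn2: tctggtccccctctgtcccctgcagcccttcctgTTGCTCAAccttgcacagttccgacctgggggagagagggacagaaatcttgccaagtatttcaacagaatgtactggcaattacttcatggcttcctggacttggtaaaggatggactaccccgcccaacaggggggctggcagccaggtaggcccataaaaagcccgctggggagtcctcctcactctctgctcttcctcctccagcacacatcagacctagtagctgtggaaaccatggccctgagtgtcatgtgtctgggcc
The match begins at position -99 from the start in Saa3 and -216 in Lcn2. TTGCNNAA was in 15 of 29 promoters of the acute phase list (51.7%), from 25 of its 35 measured members, against 10.8% of all promoters in the table. The letters TTCNNNGAA of STAT sites were in 5 of the 29 (17.2%), against 8.3% of all.

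Goblet cell and mucin genes rose in 11 of 24 with none lower (median 0.78). Muc5b, a gel-forming mucin that airways make at all times, had log2 ratios of 5.04, 4.99, 4.49, 3.79 and 5.06 in NM-401 low lungs, against 2.61, 1.33, 1.32, 1.35 and 0.95 in control lungs, control 1 being the highest control. Slc26a4, the anion exchanger pendrin of airway epithelium, had 6.10, 6.90, 6.58, 5.73 and 6.40, against 3.94, 2.83, 3.11, 3.94 and 3.29 in control lungs (log2 difference 2.92 ± 0.19, adjusted p = 1.89e-09). Muc5ac, the mucin that goblet cells add under stimulation, rose less, by 1.14 ± 0.29, with 0.77 to 1.64 in NM-401 low lungs and -0.05 to 0.30 in control lungs. Agr2, which folds mucins, rose by 1.62 ± 0.31. The list level by animal was 1.38, 1.41, 1.01, 0.50 and 1.25 in NM-401 low lungs, against -0.19 to 0.22 in controls, so animal 4 stood lowest here as it did for Clca1. The goblet cell regulators Spdef (0.45) and Foxa3 (0.28) were not called. Of 31 genes of the type 2 response, the arm of immunity driven by IL-4 and IL-13, 10 rose and 1 fell (median 0.13). Retnla, a resistin-like protein, had 5.73 to 6.16 in NM-401 low lungs and 4.36 to 4.73 in control lungs, Arg1, arginase, rose by 1.42 ± 0.29, and Ccl8 by 2.10 ± 0.27. The chitinase-like Chil3 and Chil4 (each 0.37) were not called.

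Interferon-stimulated genes, which cells switch on when interferon binds its receptor, rose in 23 of 37 with none lower (median 1.1), but the 5 exposed animals were not alike. The list level was 0.38, 0.36, 1.93, 1.81 and 2.03 in NM-401 low animals 1 to 5, against -0.17 to 0.21 in controls. Of the 37 genes, 24, 16, 37, 37 and 37 lay above the highest control in animals 1 to 5. No share over all features was taken for single animals, so these counts only compare the animals with each other. In 16 of the 37 genes all 5 NM-401 low values lay above all control values, against 6.53% of all features. Isg15, a ubiquitin-like modifier, had log2 ratios of -0.14, 0.11, 2.16, 2.35 and 3.02, against -0.41, -0.34, -0.70, -0.96 and -0.76 in control lungs. Oas1a, an antiviral RNA sensor, had 0.27, 0.65, 2.77, 2.44 and 2.78, against -0.72, -1.21, -1.72, -1.57 and -1.43 in control lungs. Animals 3, 4 and 5 were high in both genes and animals 1 and 2 lay between them and the controls, above every control. Rsad2, viperin, had 0.66, 0.62, 2.44, 2.01 and 2.69, against 0.15 to 0.92 in control lungs, and with that spread it was not called (log2 difference 1.1 ± 0.52, adjusted p = 0.161). The count rested on single animals: without NM-401 low 3, 4 or 5 it was 10, 10 and 9, and without control 3, 4 or 5 it was 13, 13 and 15. Without NM-401 low 1 or 2 it was 25 and 27. The calls of Isg15 and Ifit1 were lost without NM-401 low animal 3, 4 or 5 (Isg15 at log2 differences of 1.75 to 1.97 and adjusted p = 0.0603 to 0.0848, Ifit1 at 1.5 to 1.66 and adjusted p = 0.0545 to 0.0795), and that of Isg15 also without control 4 (2.05, adjusted p = 0.0553) and with array weights (1.76, adjusted p = 0.0537).

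Slide moved with this list. Animals 1 and 2, the low ones, were the exposed animals on slide 2, and animals 4, 5 and 3 were on slides 1, 3 and 4. Within slides the list level differed between NM-401 low and control by 1.71, 0.22, 2.21 and 2.10 on slides 1 to 4, so it was higher in NM-401 low on every slide, least on slide 2. With slide as a block in the fit 23 genes of the list rose, with array column as a block 15, and with array weights 12. Why the exposed animals differed was not tested.

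**Figure D3:**
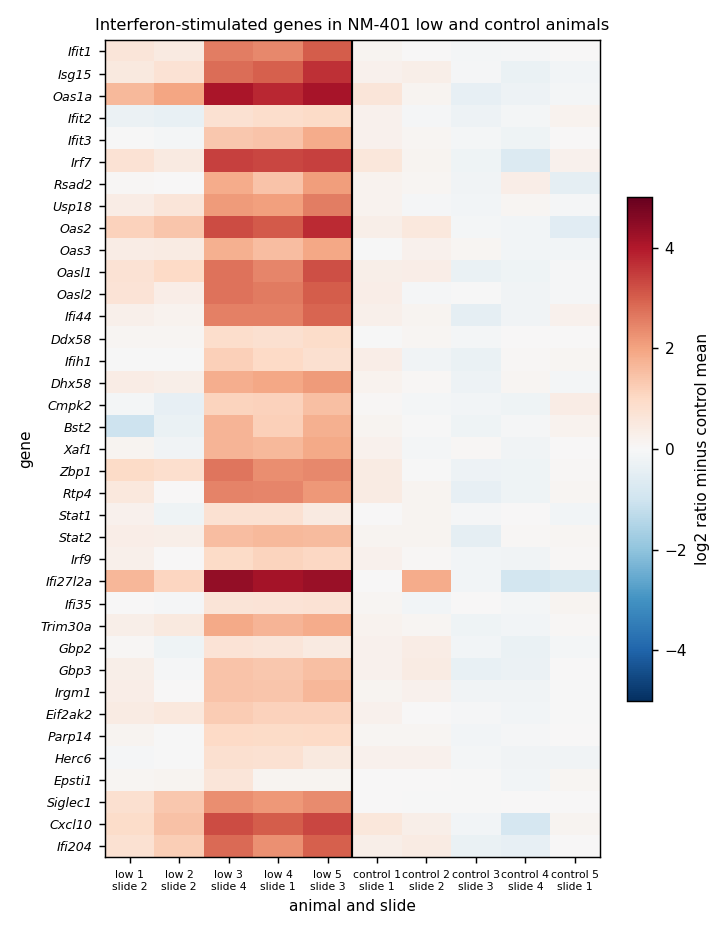
Log2 ratio minus the control mean (colour, red above and blue below) for the 37 interferon-stimulated genes (rows of the map) in NM-401 low animals 1 to 5 (left of the line) and controls 1 to 5 (right), with the slide of each array. Animals 3, 4 and 5 lie above the highest control in 37 of 37 genes, animals 1 and 2 in 24 and 16. All 5 lie above it in 16 of 37 genes, against 6.53% of all features.

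The promoters of Oas1a, Isg15 and Ifit1, the last an RNA-binding antiviral protein, are printed because they carry the letters that interferon-activated factors are known to bind. They are RefSeq promoters of GRCm38.p6, Oas1a at chr5:120907476-120907775 on the minus strand, Isg15 at chr4:156200769-156201068 on the minus strand and Ifit1 at chr19:34640639-34640938 on the plus strand. Capitals mark GAAANNGAAA, the core of the interferon-stimulated response element, on either strand.
Oas1a: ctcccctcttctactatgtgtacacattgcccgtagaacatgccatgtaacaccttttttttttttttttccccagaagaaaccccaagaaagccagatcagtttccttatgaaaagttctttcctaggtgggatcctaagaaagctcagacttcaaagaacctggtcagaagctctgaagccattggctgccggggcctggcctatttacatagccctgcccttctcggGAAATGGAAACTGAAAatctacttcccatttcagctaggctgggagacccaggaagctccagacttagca
Isg15: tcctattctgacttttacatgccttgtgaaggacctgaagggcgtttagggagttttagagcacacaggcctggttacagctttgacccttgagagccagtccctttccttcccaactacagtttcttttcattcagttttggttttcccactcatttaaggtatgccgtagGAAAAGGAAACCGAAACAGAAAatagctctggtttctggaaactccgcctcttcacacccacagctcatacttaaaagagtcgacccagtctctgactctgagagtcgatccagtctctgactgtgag
Ifit1: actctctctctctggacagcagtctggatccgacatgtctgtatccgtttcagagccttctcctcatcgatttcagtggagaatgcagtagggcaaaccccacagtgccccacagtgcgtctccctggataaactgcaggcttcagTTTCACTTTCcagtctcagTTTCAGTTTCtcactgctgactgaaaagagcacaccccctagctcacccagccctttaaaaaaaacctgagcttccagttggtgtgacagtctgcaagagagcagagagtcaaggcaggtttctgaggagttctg
Oas1a holds 2 overlapping matches, Isg15 3 overlapping matches and Ifit1 2 separate ones on the opposite strand. The nearest match to the start begins at position -14 in Oas1a, -66 in Isg15 and -85 in Ifit1. GAAANNGAAA was in 17 of 31 promoters of the list (54.8%), from 27 of its 37 measured members, against 1131 of 32851 (3.44%) over all promoters in the table.

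The same split among animals ran through antigen presentation by MHC class I, which displays peptides to T cells and is induced by interferon: 11 of 19 genes rose, none fell (median 0.64), and the list level was 0.19, 0.23, 0.85, 0.72 and 0.90 in NM-401 low animals 1 to 5, against -0.20 to 0.15 in controls. H2-T23, a non-classical heavy chain, had 1.82, 1.92, 2.92, 2.84 and 3.21 in NM-401 low lungs, against 1.54, 1.75, 1.58, 0.99 and 1.60 in control lungs. H2-K1, a classical heavy chain, rose by 1.18 ± 0.24. The count of 11 was 6, 7 and 6 without NM-401 low 3, 4 or 5, 6 and 7 without control 3 or 4, and 7 with array column as a block. Copies of the H2 genes are similar, so reads of one gene's probe by another's RNA are possible. Ly6i, a lymphocyte antigen gene of the Ly6 cluster, was among the largest rises, with 2.60, 3.43, 5.11, 4.36 and 4.80, against 0.81 to 0.89 in control lungs, and its near copy Ly6f, chosen after its values were seen, ran alike with 2.22, 2.76, 4.11, 3.70 and 4.07 against 0.46 to 0.70. MHC class II and dendritic cell genes rose in 5 of 17 (29.4%, against 8.95% of all features), with a median of 0.20. The invariant chain gene Cd74 was at 4.09 to 4.76 in NM-401 low lungs and 3.23 to 3.72 in control lungs. The class II gene H2-Ab1 (0.15) was not called.

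Lymphocyte lists moved little. Of 31 T and natural killer cell genes 4 rose (12.9%, against 8.95% of all features) and none fell (median -0.03). Among the risers were the checkpoint receptor genes Pdcd1 (1.00) and Klrg1 (0.85), Klrg1 losing its call with the Feature Extraction log ratios (0.69, adjusted p = 0.336). Cd3e, a chain of the T cell receptor complex, was not called (-0.01). The 4 rises became 2 without NM-401 low 2 or 3 or without control 1, 3, 4 or 5. Of 25 B and plasma cell genes 2 rose and 1 fell, against 8.95% and 8.0% of all features, and the 2 rises became 1 without NM-401 low 2 or 5 or any control except control 2, and 4 without NM-401 low 4.

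**Figure D4:**
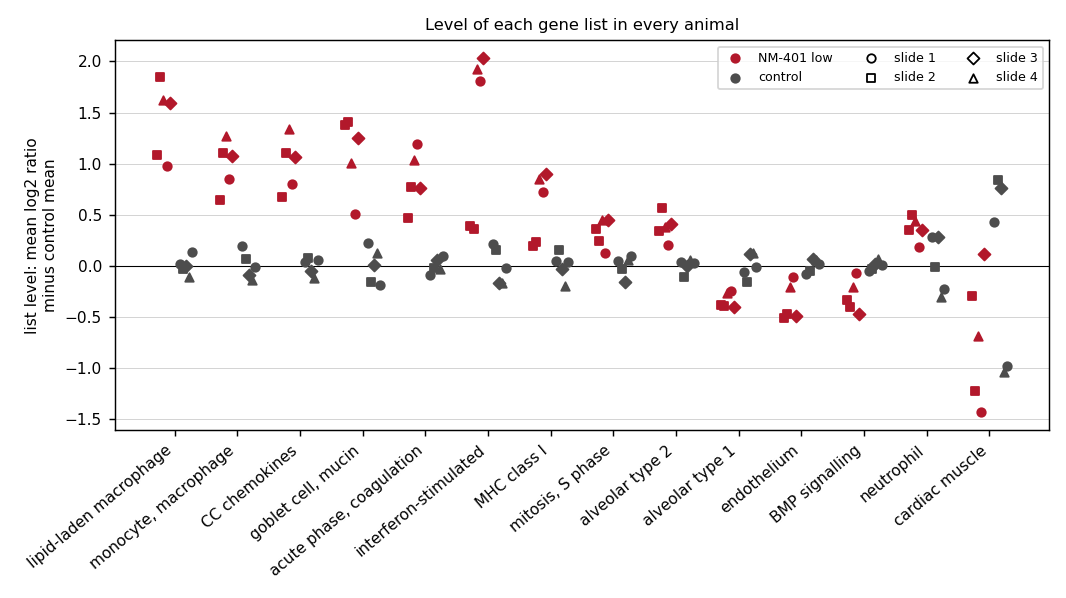
Level of 14 gene lists in every animal, as the mean log2 ratio of the members minus the control mean. NM-401 low animals are red and left, controls grey and right, and the marker shape gives the slide. The interferon list splits the exposed animals into levels of 0.36 and 0.38 (animals 2 and 1) and 1.81 to 2.03, and the cardiac muscle list spreads widely within both groups.

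The 2 alveolar epithelial lists went opposite ways. Of 27 type 2 cell genes 11 rose and none fell (median 0.29), and of 21 type 1 cell genes 10 fell and none rose (median -0.38). Sftpd, a surfactant protein that opsonises particles, had 8.09, 8.44, 8.23, 8.08 and 8.55 in NM-401 low lungs, against 8.01, 7.70, 7.79, 7.88 and 7.86 in control lungs, a small shift (log2 difference 0.43 ± 0.09, adjusted p = 0.00156) with no overlap. Several risers of the type 2 list, such as Fabp5, Retnla, Il33, Lyz2 and Ctsh, stand in other lists here too, and the surfactant genes Sftpc (0.04), Sftpb (0.02) and Sftpa1 (0.19) were not called. On the type 1 side, Aqp5, the water channel of type 1 cells, had 5.22, 5.09, 5.14, 5.40 and 4.95 in NM-401 low lungs, against 5.66, 5.43, 5.77, 5.72 and 5.67 in control lungs (log2 difference -0.49 ± 0.09, adjusted p = 0.000697). Cav1, caveolin, which endothelium also makes, had 1.58 to 1.93 against 2.18 to 2.48 in control lungs, and its partner Cav2 1.36 to 1.98 against 2.20 to 2.48. The type 1 markers Ager (-0.14), Hopx (-0.17) and Pdpn (0.18) were not called. Among 27 genes of transitional and stressed epithelium 8 rose and 1 fell. Lcn2, Orm1, Lgals3 and Areg, which led them, are in the inflammatory or macrophage lists or, for the growth factor gene Areg (1.16), made by several cell types, and the keratin genes Krt8 (0.32) and Krt18 (0.24) were not called, though with slide as a block both were (Krt8 0.39, adjusted p = 0.00575, and Krt18 0.25, adjusted p = 0.0372).

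In the airway, club cell genes fell in 6 of 28 (21.4%, against 8.0% of all features) and rose in 2 (7.14%, against 8.95%), with a median of -0.07. Scgb1c1, a secretoglobin, fell by 0.72 ± 0.20, whereas Scgb3a1, a secretoglobin of the larger airways, rose by 1.70 ± 0.29, with 4.40 to 5.67 in NM-401 low lungs and 2.31 to 4.53 in control lungs. With the Feature Extraction log ratios Scgb1c1 (-0.34, adjusted p = 0.234) and Scgb3a1 (0.30, adjusted p = 0.194) lost their calls, the 6 falls became 3, and the 2 rises became 1 there and without NM-401 low 1, NM-401 low 3, control 2 or control 5. Of 29 genes for motile cilia 1 rose (3.45%, against 8.95% of all features), Cfap43 (0.74), and none fell, with 6 higher under array weights and 7 without control 4. Of the 29, 25 had positive differences, with a list level of -0.02 to 0.43 in NM-401 low lungs and -0.28 to 0.36 in control lungs. That direction was not shared by the slides: within slides 1 to 4 the list level differed by 0.38, 0.62, -0.26 and -0.13.

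Endothelial genes fell in 18 of 41 with none higher (median -0.32). Ednrb, the endothelin B receptor of lung capillaries, had 2.25, 1.93, 2.83, 2.93 and 2.10 in NM-401 low lungs, against 3.19, 3.02, 3.38, 3.56 and 3.63 in control lungs (log2 difference -0.95 ± 0.20, adjusted p = 0.00201). Flt1, a VEGF receptor, had 3.26 to 3.94 against 4.30 to 4.71 in control lungs, Tek, the angiopoietin receptor, 3.92 to 4.44 against 4.68 to 4.78, and its ligand gene Angpt1 fell by 0.77. The list level was -0.51, -0.48, -0.21, -0.11 and -0.49 in NM-401 low animals 1 to 5, against -0.08 to 0.07 in controls, so animals 3 and 4 were nearest to the controls. The general endothelial markers Pecam1 (-0.40), Kdr (-0.17), Vwf (-0.05) and Emcn (-0.05) were not called, and Pecam1 was called with slide as a block (-0.29, adjusted p = 0.0145) and without NM-401 low 3 (-0.50, adjusted p = 0.0418) or 4 (-0.51, adjusted p = 0.0357). Cdh5, VE-cadherin, had 0.34 in animal 1, against 5.90 to 6.24 in animals 2 to 5 and 6.21 to 7.03 in controls. With animal 1 it was not called (-1.60 ± 0.69, adjusted p = 0.117), and without it the log2 difference was -0.44 (adjusted p = 0.0454).

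BMP signalling, which steadies lung vessels through the receptor Bmpr2 and its partners, had the largest share of lower genes among the 48 lists: 17 of 29 fell and none rose (median -0.41). Bmpr2, the type 2 receptor, had 2.59, 2.39, 2.42, 2.72 and 2.61 in NM-401 low lungs, against 2.91, 3.01, 3.32, 3.23 and 3.05 in control lungs (log2 difference -0.56 ± 0.12, adjusted p = 0.00217). Among co-receptors and partners, Acvrl1 fell by 0.39 and Eng, endoglin, by 0.57 on the log2 scale. Both genes and Bmpr2 are also in the endothelial list. Of the ligands, Bmp6 fell by 0.50 ± 0.13, while Bmp4 (-0.22) and Bmp2 (0.02) were not called. Among targets and feedback inhibitors Hey1 had 3.06, 3.03, 3.25, 3.52 and 2.66 in NM-401 low lungs, against 3.69, 3.85, 3.89, 4.02 and 3.88 in control lungs. Smad6, an inhibitor induced by the pathway, had 2.84 to 3.74 against 3.43 to 4.27, and the groups overlapped by animal 4 (3.74) and control 1 (3.43). Id1, a target, had -0.16 to 0.25 against 0.41 to 0.84 in control lungs, apart in every animal, but its SE of 0.30 left it uncalled (adjusted p = 0.197).

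Fibroblast and smooth muscle genes fell in 11 of 36 (30.6%, against 8.0% of all features). They rose in 3 (8.33%, against 8.95% of all features), with a median of -0.07. Pdgfra, the PDGF receptor of alveolar fibroblasts, had -0.12, -0.61, -0.01, 0.31 and -0.21 in NM-401 low lungs, against 0.74, 0.95, 0.67, 0.84 and 0.74 in control lungs (log2 difference -0.92 ± 0.13, adjusted p = 4.99e-05). Tcf21, a transcription factor of lipofibroblasts, fell by 0.69 ± 0.15 and Itga8, an integrin chain of alveolar fibroblasts, by 0.72. With the Feature Extraction log ratios both calls were lost, Tcf21 at -0.03 (adjusted p = 0.945) and Itga8 at 0.73 (adjusted p = 0.102). Acta2, smooth muscle actin, was not called (0.02). Of 41 matrix proteins 3 were higher (7.32%, against 8.95% of all features) and 6 lower (14.6%, against 8.0%), with a median of -0.07. Emilin2 (0.88), Fbln1, fibulin (0.58), and the fibrillar collagen gene Col3a1 (0.41 ± 0.13) rose, and with slide as a block the 3 rises became 5. The groups overlapped for Col3a1, whose call was lost without NM-401 low 1 or 2 or control 2, 3 or 5 (0.32 to 0.40, adjusted p = 0.0554 to 0.107), with array column as a block (0.40, adjusted p = 0.0588), with the authors' deposited log2 ratios (0.40, adjusted p = 0.0565) and with only the groups compared (adjusted p = 0.0645). The basement membrane gene Nid1 had -0.93 to -0.59 in NM-401 low lungs and -0.31 to -0.00 in control lungs. Col1a1, the main fibrillar collagen, had -2.35 to -1.99 against -2.48 to -2.07 and was not called (0.10). Proteases and inhibitors rose in 13 of 38 and fell in 1. Besides Mmp12 these included Adam8, a metalloprotease of leukocytes, at -0.48 to 0.54 against -2.66 to -2.17 in control lungs, Timp1, a metalloproteinase inhibitor, at -1.86 to -0.54 against -3.05 to -2.73, and Wfdc17, a small secreted protein of macrophages, at 3.82 to 5.44 against 0.83 to 2.37. Growth factor genes split, 6 of 31 higher and 9 lower. Igf1, made by macrophages and fibroblasts, rose by 2.23 ± 0.25, with 1.00 to 2.24 in NM-401 low lungs and -1.25 to 0.01 in control lungs. Tgfb1, the main fibrotic growth factor, had a log2 difference of 0.26 and was not called (adjusted p = 0.143), but with slide as a block it was (0.28, adjusted p = 0.0123). The 9 falls became 4 without NM-401 low 2, 5 without NM-401 low 5 and 5 without control 4.

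The series title names genotoxicity, which RNA levels do not measure. Genes of mitosis and S phase rose in 17 of 35 with none lower (median 0.28). Mki67, a marker of cycling cells, had -3.13, -3.29, -3.05, -3.59 and -3.08 in NM-401 low lungs, against -3.65, -3.85, -4.16, -3.66 and -3.70 in control lungs (log2 difference 0.57 ± 0.15, adjusted p = 0.011). Uhrf1, which copies DNA methylation at the fork, had -3.86 to -3.40 against -4.49 to -4.12. The shifts were small, and the count was 11 without NM-401 low 3, 11 without control 3 and 11 with the authors' values. Tpx2, a spindle protein, had -1.42 in animal 5, against -3.90 to -3.41 in the other exposed animals and -4.26 to -4.02 in controls. Its call (0.90 ± 0.28, adjusted p = 0.0293) was lost without control 4 (0.87, adjusted p = 0.0606) or control 5 (0.88, adjusted p = 0.0563) and with only the groups compared (adjusted p = 0.157). Of 30 p53 targets 7 rose (23.3%, against 8.95% of all features) and 1 fell (3.33%, against 8.0%). Gdf15, a stress cytokine, had -1.04 to -0.02 against -2.62 to -1.99, and the p53 regulator Mdm2 (0.16) was not called. Of 41 DNA repair genes 6 rose (14.6%, against 8.95% of all features) and 1 fell (2.44%, against 8.0%). Parp1 (0.07), a sensor of strand breaks, and Ogg1 (0.20), which removes oxidised guanine, were not called.

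Of 41 antioxidant and oxidase genes 14 were called higher and 6 lower (median 0.14). Of the 14, 4 were parts of the oxidase of phagocytes, Ncf4 (1.12), Cyba (0.97), Ncf1 (0.89) and Cybb (0.70). The other 10 were antioxidant genes, among them Akr1b8, an aldo-keto reductase (0.96), Sod2, mitochondrial superoxide dismutase (0.54), and Prdx1, a peroxiredoxin (0.46). Of NRF2 targets, Hmox1, haem oxygenase, had -0.94, -0.56, -0.64, -0.92 and -0.67 in NM-401 low lungs, against -1.47, -1.57, -1.59, -1.41 and -1.51 in control lungs, and Gclc, which starts glutathione synthesis, rose by 0.81. Nqo1, a standard NRF2 target, was not called (-0.01), and Nox4, an oxidase of mesenchymal cells, fell by 0.76 ± 0.20. Metal and iron genes rose in 11 of 27 and fell in 1. Slc11a1, the metal transporter of phagosomes, had -0.94 to -0.00 in NM-401 low lungs and -2.38 to -1.65 in control lungs, and the metallothionein gene Mt2 rose by 0.85 ± 0.19.

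Immediate early and heat shock genes fell in 10 of 25 (40%, against 8.0% of all features) and rose in 2 (8%, against 8.95%). The median was -0.28, and the 2 rises became 4 without NM-401 low 5. Hspa1a, an inducible chaperone, had -0.09, 0.06, 0.08, 0.55 and 0.04 in NM-401 low lungs, against 0.59, 1.61, 2.00, 1.28 and 0.95 in control lungs (log2 difference -1.16 ± 0.19, adjusted p = 0.000248). Dusp1, a phosphatase, fell by 0.91 ± 0.22 and Klf4 by 0.62 ± 0.14. Egr2 (1.15) and Atf3 (1.05), transcription factors that macrophages also use, rose instead, and Fos (-0.09) was not called. Serpinh1, a collagen chaperone that heat shock induces, had -1.55 to -1.39 in NM-401 low lungs and -0.57 to 0.16 in control lungs. Of 20 clock genes 5 rose (25%, against 8.95% of all features) and 5 fell (25%, against 8.0%). Per1, a light- and hormone-responsive clock gene, had -0.59, -0.28, -0.46, -0.38 and -0.33, against 0.36, 1.24, 0.83, 1.26 and 0.42 in control lungs (log2 difference -1.23 ± 0.23, adjusted p = 0.000668). Rora, an orphan nuclear receptor, fell by 0.57 and Bhlhe40, a repressor, rose by 0.85. The output genes Dbp (-0.46) and Nr1d1 (-0.57) varied among controls, from -3.06 to -0.67 and from -0.92 to 0.73, and were not called. The 5 rises became 3 without NM-401 low 2, control 1 or control 5 and with array column as a block, and the 5 falls became 3 without NM-401 low 2 and 2 without NM-401 low 5, control 4 or control 5.

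Npy, neuropeptide Y, was above background in 5 NM-401 low and 0 control lungs. Its probe was thus kept only through exposed groups, and the control level is only an upper limit. The log2 ratios were 1.65, 3.73, 3.51, 1.59 and 2.87 in NM-401 low animals 1 to 5 (log2 difference 2.74 ± 0.33, adjusted p = 6.17e-06). By the Cy5 signals Npy was at least 7.91-fold higher in NM-401 low lungs. Animals 1 and 4 were the lower ones, as for Trem2 and Gpnmb. The neuroendocrine markers Calca (0.06), a peptide hormone gene, and Chga (0.07), chromogranin A, were not called.

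On chromosome 11, Smim6 and Srp68 fell into 2 separate levels in these 10 lungs. Smim6 had 1.21, 0.91, 0.90, 1.01 and 3.38 in NM-401 low animals 1 to 5, against 3.31, 2.80, 3.31, 3.39 and 3.38 in control lungs. Srp68, a signal recognition particle subunit, had -1.0, -1.03, -0.98, -1.15 and 0.40, against 0.58, 0.58, 0.63, 0.59 and 0.37 in control lungs. NM-401 low animals 1 to 4 were low for both genes, and animal 5 lay among the controls. The low level was seen in 4 of 5 NM-401 low, 2 of 5 NM-401 high and 1 of 5 Mitsui low lungs. It was seen in no Mitsui high lung and in 0 of 5 controls. NM-401 high animals 3 and 4 had 0.48 and 0.76 for Smim6 and -1.01 and -1.07 for Srp68, and Mitsui low animal 2 had 1.05 and -1.08. In the other groups Srp68 also had values between the 2 levels. These were -0.15 to 0.01 in Mitsui low animals 1, 3, 4 and 5 and -0.06 in NM-401 high animal 5. Mitsui high animals 3, 4 and 5 had -0.01, -0.09 and 0.30. Grin2c, a glutamate receptor gene on the same chromosome chosen after its values were seen, ran the other way in NM-401 low lungs, with 2.32, 2.41, 2.22, 2.02 and 0.49 against 0.65 to 1.01 in control lungs. The annotation lists 42 measured genes from Grin2c to Srp68, 11 of them called, against 16.9% of all features. The range ends at genes chosen for their values, so this count is a description only. The call of Smim6 (log2 difference -1.76) was lost with any animal left out except NM-401 low 5 or control 2 (-1.74 to -1.61, adjusted p = 0.0644 to 0.0921), and with slide as a block (-1.72, adjusted p = 0.0514).

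**Figure D5:**
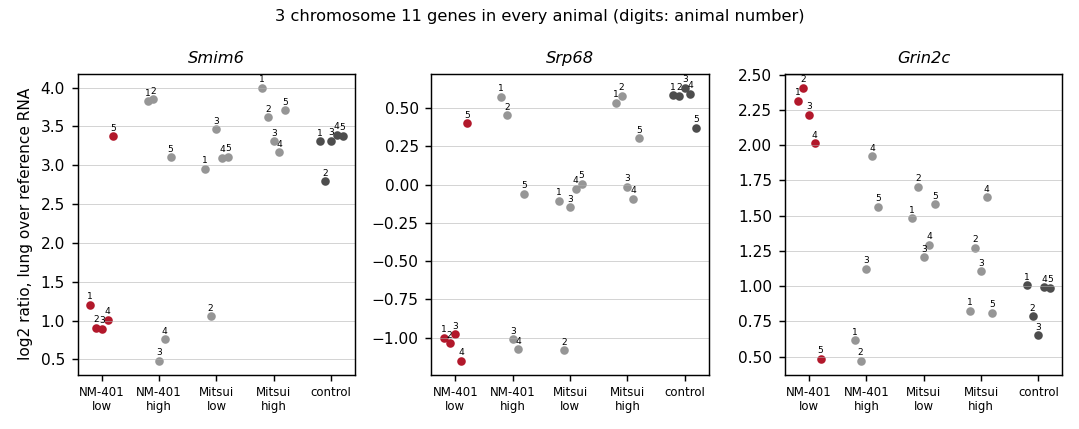
Log2 ratio of lung over reference RNA for Smim6, Srp68 and Grin2c in all 25 animals by group, with NM-401 low red, control grey and the other groups light grey. Digits are animal numbers. NM-401 low animals 1 to 4, NM-401 high animals 3 and 4 and Mitsui low animal 2 form the lower level of Smim6 and Srp68.

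Compared with the other material at the same dose, NM-401 low lungs differed from Mitsui low lungs in 0 of 22950 features (0%) by limma at an adjusted p under 0.05, with 1287 at an unadjusted p under 0.05 and a smallest adjusted p of 0.0819. With the Feature Extraction log ratios or only the groups compared the count was 1 each, and with array weights 4. Trem2 had a log2 difference of -0.13 ± 0.29 between NM-401 low and Mitsui low, Saa3 -0.53 ± 0.46, Slc26a4 0.00 ± 0.19 and Flt1 0.07 ± 0.15. The SEs show how large a difference would have passed unseen: the Clca1 difference of -1.41 carried an SE of 0.86. List medians of NM-401 low minus Mitsui low ran from -0.29 for cholesterol and fatty acid synthesis to 0.32 for interferon-stimulated genes, with 0 members called in any of the 48 lists.

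Against NM-401 low, the high dose of NM-401 differed in 882 features (3.84%), of which 618 (2.69%) were higher in NM-401 high and 264 (1.15%) lower. This count was unstable: it was 1562 with slide as a block, 0 with array column as a block, 0 with only those groups in the fit, 222 and 183 without NM-401 low 1 or 4, and 301 and 209 without NM-401 high 3 or 5. Higher in NM-401 high were 11 of 17 lipid-laden macrophage genes (median log2 difference 0.73, NM-401 high minus low), 12 of 31 lysosomal genes (0.34), 10 of 16 proton pump genes (0.40) and 7 of 24 monocyte and macrophage genes (0.42), with none lower. Spp1 averaged 1.13 ± 0.55 in NM-401 high and -0.68 ± 1.22 in NM-401 low lungs (SD, n = 5 each), a difference of 1.82 ± 0.40 (SE, adjusted p = 0.0142), and Gpnmb 2.64 ± 0.63 and 0.92 ± 0.87. The other largest rises were Gp2, a receptor of specialised epithelium (2.13 ± 0.51), Krt14, a basal cell keratin (1.5 ± 0.35), and Ccl2 (1.48 ± 0.38). The largest falls were Fabp1, a fatty acid carrier, with 2.99 ± 0.73 in NM-401 high and 5.23 ± 1.36 in NM-401 low lungs, the predicted gene Gm15772 (-2.22 ± 0.46), the endothelial gene Esm1 (-1.41 ± 0.29), Bex4 (-1.12 ± 0.25) and Gsta3, a glutathione transferase (-1.05 ± 0.20). NM-401 low animal 4 was the highest of the 10 NM-401 low and control lungs for Fabp1, at 7.26, against 3.51 to 5.54 in the other exposed animals. Interferon-stimulated genes had 0 of 37 called between the doses (median 0.32) and BMP genes a median of -0.19. Slc26a4 (0.31 ± 0.19), C3 (0.12 ± 0.14) and Cxcl5 (-0.47 ± 0.39) were not called between the doses.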

How the data were processed

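Lung RNA of each animal (Cy5) was hybridised with universal mouse reference RNA (Cy3) on 2-colour Agilent arrays. The deposited scanner files hold spot intensity as written by Agilent Feature Extraction 11.0.1.1, per the file headers. The authors' deposited value table holds log2 ratios of the same arrays. Its normalization is not given in the sources used here, and its columns correlated at 0.9932 to 0.9991 with the ratios computed here. Feature Extraction's own log10 ratios, per the file headers, were a further alternative.

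From the intensities, background was corrected with normexp (offset 50) and each array normalized by loess in limma 3.58.1 under R 4.3.3. Outlier spots (0.461%) and control spots were left out, and 61 features lacked a value in some animal. Probes well above background in Cy5 in 4 or more animals of a group were kept, 30466 of 55681, and the brightest probe stood for a gene. Symbols came from RefSeq accessions (GRCm38.p6), and 28446 probes had none. One fit with 5 group means over 25 animals gave each contrast, with Benjamini-Hochberg adjustment. Nothing says that replicates were processed apart, and the number of arrays limits precision.

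The members and lists were chosen with earlier results of these data known. The genes named were the 15 largest rises and falls, the first 2 measured members of each list and up to 4 called members each way, and between the doses the 5 largest each way. Other genes named, mostly standard markers, were chosen after their values were seen. For Fga and Npy, not above background in any control array, a bound on the fold was taken from the normalized Cy5 signals. The script was tested on simulated data.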

Additional observations from a re-analysis of the deposited data

Results flagged for a closer look

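For each sample at the edge of its group, the gap to the nearest other sample was divided by the range of the group. A sample was singled out where this ratio exceeded Dixon's 95% critical value for 5 samples. Chance alone gives about 1 such group in 20. Among the list levels 7 of 96 groups met it and among the named genes chosen by rule 32 of 570 (5.61%). Among the genes named in the text, some chosen after their values were seen, 27 of 418 groups met it. The genes listed below are those 27.

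Among list levels these were scavenger receptors in control 2 (0.074, others -0.026 to -0.008), lipid handling in control 2 (0.288, others -0.11 to -0.025), resident alveolar macrophage in NM-401 low animal 1 (0.198, others -0.022 to 0.01) and DNA repair in control 5 (0.037, others -0.014 to -0.003). The others were endoplasmic reticulum chaperones in NM-401 low animal 1 (-0.054, others 0.026 to 0.048), neuroendocrine markers in control 4 (0.256, others -0.1 to -0.001) and red blood cell genes in NM-401 low animal 1 (-1.093, others -0.379 to -0.301).

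Single NM-401 low animals stood apart from their group in the log2 ratio of these genes. Casp1 was at 0.794 in NM-401 low animal 3 (0.066 to 0.221 in the others) and Cdh5 at 0.336 in NM-401 low animal 1 (5.899 to 6.239 in the others). Cybb was at 2.806 in NM-401 low animal 2 (2.268 to 2.384 in the others), Gm15772 at -1.822 in NM-401 low animal 5 (-0.094 to 0.101 in the others) and Grin2c at 0.486 in NM-401 low animal 5 (2.015 to 2.41 in the others). Hbb-bs was at 0.417 in NM-401 low animal 1 (6.791 to 7.089 in the others), Hspa1a at 0.547 in NM-401 low animal 4 (-0.092 to 0.082 in the others) and Sftpc at 8.148 in NM-401 low animal 5 (7.677 to 7.809 in the others). Smim6 was at 3.377 in NM-401 low animal 5 (0.896 to 1.206 in the others), Srp68 at 0.4 in NM-401 low animal 5 (-1.151 to -0.978 in the others) and Tpx2 at -1.423 in NM-401 low animal 5 (-3.895 to -3.409 in the others). Xist was at 0.767 in NM-401 low animal 5 (0.406 to 0.463 in the others).

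Single controls stood apart in these genes. Apoa1 was at 0.701 in control 5 (0.148 to 0.305 in the others). Calca was at 2.058 in control 4 (0.841 to 1.139 in the others), Cdh13 at 1.188 in control 2 (1.927 to 2.174 in the others) and Clca1 at 0.335 in control 3 (-0.076 to 0.031 in the others). Cybb was at 1.42 in control 2 (1.778 to 1.813 in the others), H2-T23 at 0.994 in control 4 (1.538 to 1.751 in the others) and Itgam at 1.083 in control 1 (0.991 to 0.999 in the others). Muc5b was at 2.609 in control 1 (0.947 to 1.352 in the others), Orm1 at 1.171 in control 2 (0.02 to 0.176 in the others) and Plau at -0.208 in control 5 (-1.953 to -1.579 in the others). Pparg was at 1.322 in control 2 (0.782 to 0.934 in the others), Sftpb at 6.388 in control 2 (6.62 to 6.656 in the others) and Smim6 at 2.797 in control 2 (3.309 to 3.394 in the others). Spp1 was at -4.3 in control 1 (-3.549 to -3.328 in the others) and Srp68 at 0.372 in control 5 (0.581 to 0.633 in the others).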

How the results depend on the processing

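Between NM-401 low and control 3890 features were called, and 3107 with only those groups in the fit. With median centring in place of loess 62 were called (52 higher, 10 lower, 83.9% higher against 52.8%), the median of all features was -0.11 and the median SE 0.31, against 0.095, and 8 were called between the NM-401 doses. Under it the log2 differences of Chil1 (-0.078) and Ndufs3 (-0.033) changed sign, as did Cidec (0.09) and Itga8 (0.73) with the Feature Extraction log ratios and Itgam (0.29) with the mean over probes. With median centring some list medians also turned negative: antioxidant (-0.015), CXC chemokines (-0.076), p53 targets (-0.074) and DNA repair (-0.087). The same held for neutrophil (-0.074), B and plasma cell (-0.014) and endoplasmic reticulum chaperone genes (-0.145). The share higher was 46.9% with the Feature Extraction log ratios and 45.5% with the authors' values. Leaving out each animal gave 2923 to 3883 called features (1644 to 1928 higher and 1279 to 1955 lower) between NM-401 low and control, 0 to 0 between NM-401 low and Mitsui low, and 183 to 1232 between NM-401 high and low. Between NM-401 low and Mitsui low 1 was called with the Feature Extraction log ratios, 1 with only the groups compared and 4 with array weights. Between NM-401 high and low 1562 were called with slide as a block, 0 with array column as a block, 0 with only the groups compared and 1679 with array weights. The causes were not tested.

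The replicate numbers do not pair the samples: same-numbered animals correlated in their deviations at 0.0471, -0.0492, -0.205, -0.00596 and -0.131, and with the replicate block 3840 features were called (2057 higher).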

Other observations

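Platelet genes, a list put together after Ppbp had been seen, fell in 11 of 14 with none higher (median log2 difference -0.49). Of all features 8.0% fell and 8.95% rose, but a list made this way gives a description only. Its level was -0.77 to -0.27 in NM-401 low lungs and -0.05 to 0.05 in control lungs. Gp9, a platelet receptor subunit, and Treml1, a platelet granule receptor, had log2 differences of -1.16 and -0.94, while Pf4, platelet factor 4, was not called.

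Genes that glucocorticoids induce, a list put together after Per1 and Zbtb16 had been seen, fell in 9 of 15 with none higher (median -0.52). Here too 8.0% of all features fell and 8.95% rose, and the count is a description only. Its level was -0.61 to -0.47 in NM-401 low lungs and -0.23 to 0.26 in control lungs. Tsc22d3, also known as GILZ, had a log2 difference of -0.82 and Klf9 of -0.94, and Fkbp5 was not called.

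NM-401 low animal 1 lacked most of the signal of Hbb-bs, a haemoglobin chain, with 0.42 against 6.79 to 7.09 in the other NM-401 low animals, beside its low Cdh5.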
